A study of Mus musculus with 6 samples.

Results

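The genes described here encode the innate immune sensors of microbes and foreign nucleic acids: Toll-like receptors, NOD-like receptors and cytosolic RNA and DNA sensors, with the adaptors and Irak kinases that relay their signals. They were chosen by name, as 41 genes, and each was read from the brightest probe set that carries its symbol alone. Of these, 38 were measured, among 19938 genes in all: 29 receptors, co-receptors, chaperones and sensors, and 9 adaptors and kinases. Tlr5, Nlrp12 and Irak4 were not analysed here.

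The RNA came from bone marrow cells of 6 mice, 1 Affymetrix mouse gene array per mouse. In 3 mice, the HoxA9AA/Meis1 group, the lethally irradiated CD45.1+ hosts had received CD45.2+ LSK cells (the fraction rich in haematopoietic stem and progenitor cells) transduced with Meis1 and with HoxA9AA-GFP. The 3 mice of the HoxA9wt/Meis1 group had received LSK cells transduced with Meis1 and with HoxA9wt-GFP, so that introduced Meis1 is common to all 6 mice. All marrow was taken at disease onset. Whole marrow was profiled with no sort named, so cells of the host may be part of each sample, and the labels name no age, sex or strain of the mice. Values are log2 units, so that 1 unit is a doubling, and every difference below is HoxA9AA/Meis1 minus HoxA9wt/Meis1.

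Toll-like receptors are membrane proteins whose outer part binds a microbial product and whose inner part, the TIR domain, recruits an adaptor, most often Myd88. Those at the cell surface read lipids and proteins of bacteria, and those in endosomes read nucleic acids. NOD-like receptors watch the cytosol for bacterial products and damage, and some of them assemble inflammasomes, which mature interleukin 1 beta. The RIG-I-like receptors Ddx58, Ifih1 and Dhx58 bind viral RNA and signal through Mavs on mitochondria to type I interferon. Monocytes, macrophages and neutrophils carry many of these receptors, and their level is a usual mark of myeloid maturation.

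The 3 HoxA9wt arrays and HoxA9AA replicate 2 resembled each other (Pearson's r of 0.987 to 0.991 over genes), and HoxA9AA replicates 1 and 3 stood apart from them and from each other (0.958 to 0.972). Background was judged from the 1027 olfactory receptor genes, of which 95% had a mean under 6.57. Tlr3, Tlr12, Nlrc3 and Naip6 lay below that level and are called near background.

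None of the 38 genes passed the test. With limma, 0 of them had an adjusted p under 0.05 (percent of all genes called, 0), and their adjusted p ran from 0.731 to 0.994. At an unadjusted p under 0.05 there were 3, Tlr6, Tlr7 and Tlr8, all lower in HoxA9AA/Meis1 marrow, where 6.74% of all genes had such a p, 2.59% on the lower and 4.15% on the higher side (516 and 828 genes, and 392 and 1027 after median centring). Leaving out HoxA9AA replicate 2, the mouse most like the HoxA9wt mice, gave 12 such members, where 2802 of all 19938 genes had such a p. Still 0 members had an adjusted p under 0.05, a threshold that 0.241% of all genes then passed. Without HoxA9AA replicate 1 there was 1 such member, Tlr9, which was higher, and 1307 of all genes had such a p. Tlr6, Tlr7 and Tlr8 then had an unadjusted p of 0.060, 0.106 and 0.095 with limma. Without HoxA9wt replicate 3 there were 0 such members. Groups that did not overlap were found in 3 of the 38 (Tlr6 and Aim2 lower, Irak1 higher), against 11.4% of all genes, 4.8% lower and 6.6% higher. The low values of the receptors lay in particular mice. HoxA9AA replicate 1 lay below every HoxA9wt mouse in 20 of the 29 receptors and sensors, HoxA9AA replicate 3 in 17 and HoxA9AA replicate 2 in 5. Over all genes, dim ones included, these shares were 26.4%, 29.3% and 26.4%. Such shares were not counted over expressed genes alone, so the excess over them is not known. The receptors and sensors had a median difference of −0.33, 21 of 29 with a lower mean, and the adaptors and kinases one of 0.11, 2 of 9 with a lower mean. Over all genes the median was 0.01 and the share with a lower mean 46.4%. The median of the receptors was −0.13 without HoxA9AA replicate 1, −0.16 without HoxA9AA replicate 3 and −0.125 without HoxA9wt replicate 1.

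The 4 measured Toll-like receptors of the cell surface all had a lower mean in HoxA9AA/Meis1 marrow, by 0.51 to 1.09. Tlr4, the receptor for bacterial lipopolysaccharide, measured 7.43, 9.34 and 7.68 in HoxA9AA replicates 1, 2 and 3, against 9.26, 9.51 and 8.94 in the HoxA9wt mice. HoxA9AA replicates 1 and 3 lay below all HoxA9wt mice, and HoxA9AA replicate 2 lay among them. The difference was −1.09 ± 0.49 (SE; 95% interval −2.27 to 0.10). Tlr2 pairs with Tlr1 or Tlr6 to bind bacterial lipopeptides. It measured 7.36, 9.07 and 8.30 in the HoxA9AA mice, against 8.74, 9.01 and 9.56 in the HoxA9wt mice, with the same mice low (difference −0.86 ± 0.44, interval −1.91 to 0.19, and −0.42 without HoxA9AA replicate 1). Its partner Tlr1 averaged 8.71 ± 0.67 in HoxA9AA/Meis1 marrow and 9.22 ± 0.27 in HoxA9wt/Meis1 marrow (SD, n = 3 each), and its difference ranged from −0.90 to −0.30 with any 1 array left out.

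Tlr6, the other partner of Tlr2, was the only Toll-like receptor gene whose groups did not overlap. It measured 7.10, 7.75 and 6.51 in the HoxA9AA mice, against 7.90, 7.92 and 8.04 in the HoxA9wt mice. The HoxA9wt mice lay within a narrow band, and HoxA9AA replicate 2 lay just under it. The difference was −0.83 ± 0.29 (interval −1.54 to −0.13; limma, adjusted p = 0.731). The promoter of Tlr6 is shown because it holds a motif of the interferon response. It runs from 250 bases before to 50 after 1 of the 2 annotated starts, at chr5:64959117-64959416 on the minus strand of GRCm38.p6 (RefSeq), and capitals mark 2 overlapping matches to the interferon-stimulated response element (GAAA, any 2 bases, GAAA), read on the opposite strand.
Tlr6: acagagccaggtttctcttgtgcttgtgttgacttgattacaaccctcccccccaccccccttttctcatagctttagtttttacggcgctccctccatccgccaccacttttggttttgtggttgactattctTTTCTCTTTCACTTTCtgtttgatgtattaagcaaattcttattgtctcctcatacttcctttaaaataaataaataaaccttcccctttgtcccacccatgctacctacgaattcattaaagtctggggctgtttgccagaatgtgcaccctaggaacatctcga

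The co-receptors of the surface receptors split into a pair that was lower in HoxA9AA replicates 1 and 3 and a pair that was not. Ly96 (MD-2), which holds the lipopolysaccharide for Tlr4, measured 7.09, 9.49 and 8.23 in the HoxA9AA mice, against 9.73, 9.27 and 9.43 in the HoxA9wt mice. The HoxA9AA mice were spread over more than 2 units and the HoxA9wt mice over less than 0.5, and the difference was −1.21 ± 0.56 (interval −2.55 to 0.14). It was −0.62 without HoxA9AA replicate 1 and −1.82 without HoxA9AA replicate 2. Cd14, the surface protein that hands lipopolysaccharide to Ly96 and Tlr4, measured 7.60, 8.20 and 7.27 in the HoxA9AA mice, against 8.68, 7.69 and 9.29 in the HoxA9wt mice. Here the HoxA9wt mice varied more (SD 0.47 in the HoxA9AA mice and 0.81 in the HoxA9wt mice), and HoxA9wt replicate 2 lay within the range of the HoxA9AA mice. The difference of Cd14 ranged from −1.30 without HoxA9wt replicate 2 to −0.50 without HoxA9wt replicate 3. The Tlr4 homologue Cd180 and its partner Ly86 (MD-1) form a complex that tunes the lipopolysaccharide response. Cd180 measured 9.17, 11.24 and 11.17 in the HoxA9AA mice, against 11.39, 10.57 and 10.65 in the HoxA9wt mice, so that HoxA9AA replicate 1 alone was low. The difference of Cd180 was −0.34 ± 0.58, and it was 0.33 without that mouse. Ly86 averaged 11.35 ± 0.22 in HoxA9AA/Meis1 marrow and 11.38 ± 0.23 in HoxA9wt/Meis1 marrow, with an interval of the difference from −0.42 to 0.36.

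Among the endosomal receptors, those for single-stranded RNA were lower on average in HoxA9AA/Meis1 marrow and the receptor for CpG DNA was not. Tlr8, a sensor of RNA breakdown products that lies beside Tlr7 on the X chromosome, had the largest difference of the 38 genes. It measured 5.77, 8.41 and 6.63 in the HoxA9AA mice, against 8.73, 8.71 and 8.23 in the HoxA9wt mice. HoxA9AA replicate 1 lay under the background level of 6.57 and HoxA9AA replicate 3 just above it, while HoxA9AA replicate 2 lay within the HoxA9wt range. The difference was −1.62 ± 0.63 (3.07-fold lower; interval −3.13 to −0.11; limma, adjusted p = 0.731), and it ranged from −2.36 to −1.04 when any 1 array was left out. Tlr7, the receptor for single-stranded RNA, measured 7.52, 8.90 and 8.40 in the HoxA9AA mice, against 9.98, 8.90 and 9.10 in the HoxA9wt mice. The groups met at 8.90, and the difference was −1.05 ± 0.42 (interval −2.05 to −0.05; −0.68 without HoxA9AA replicate 1). Tlr13, a mouse receptor for bacterial ribosomal RNA, measured 8.64, 11.11 and 10.07 in the HoxA9AA mice, against 11.37, 10.96 and 11.19 in the HoxA9wt mice. Again HoxA9AA replicates 1 and 3 lay below all HoxA9wt mice and HoxA9AA replicate 2 among them (difference −1.23 ± 0.57, interval −2.61 to 0.15, and −0.58 without HoxA9AA replicate 1).

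Tlr9, the receptor for unmethylated CpG DNA, went the other way, with a mean of 7.89 ± 0.32 in HoxA9AA/Meis1 marrow and 7.64 ± 0.12 in HoxA9wt/Meis1 marrow. Its highest mouse was HoxA9AA replicate 3 at 8.18 and its lowest HoxA9AA replicate 1 at 7.54. Unc93b1, the chaperone that carries the endosomal receptors out of the endoplasmic reticulum, averaged 9.0 ± 0.30 and 9.10 ± 0.11 in HoxA9AA/Meis1 and HoxA9wt/Meis1 marrow, with an interval of the difference from −0.50 to 0.29. Tlr3, the receptor for double-stranded RNA, and Tlr12, which recognises profilin of protozoa, were near background in every group, at means of 5.02 and 6.28 in HoxA9AA/Meis1 marrow and 5.12 and 6.37 in HoxA9wt/Meis1 marrow.

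The promoters of Tlr8 and Tlr13 are shown as those of receptors with large differences in the same mice. They lie at chrX:167264280-167264579 on the minus strand and at chrX:106143025-106143324 on the plus strand of GRCm38.p6, and capitals mark the core GAGGAA bound by the myeloid ETS factor PU.1, read on the opposite strand in Tlr8. On either strand this core was present in 25.6% of the 39 promoter windows found in the RefSeq table for 30 of the 38 genes (without Tlr4, Tlr7, Cd14, Ly96, Unc93b1, Nlrc5, Dhx58 and Ticam2) and in 28.3% of all 32851 windows, so that it does not set these promoters apart.
Tlr8: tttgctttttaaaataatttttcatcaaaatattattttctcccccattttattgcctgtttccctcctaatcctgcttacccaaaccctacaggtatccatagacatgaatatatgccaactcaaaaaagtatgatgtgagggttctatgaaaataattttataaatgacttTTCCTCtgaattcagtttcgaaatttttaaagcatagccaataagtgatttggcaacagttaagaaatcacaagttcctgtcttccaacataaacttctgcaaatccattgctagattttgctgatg
Tlr13: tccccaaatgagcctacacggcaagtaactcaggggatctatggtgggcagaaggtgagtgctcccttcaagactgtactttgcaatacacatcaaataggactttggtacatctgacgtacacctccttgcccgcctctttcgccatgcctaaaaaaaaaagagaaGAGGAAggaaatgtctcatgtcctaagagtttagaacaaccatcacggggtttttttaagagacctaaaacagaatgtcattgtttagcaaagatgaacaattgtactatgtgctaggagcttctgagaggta

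**Figure D1:**
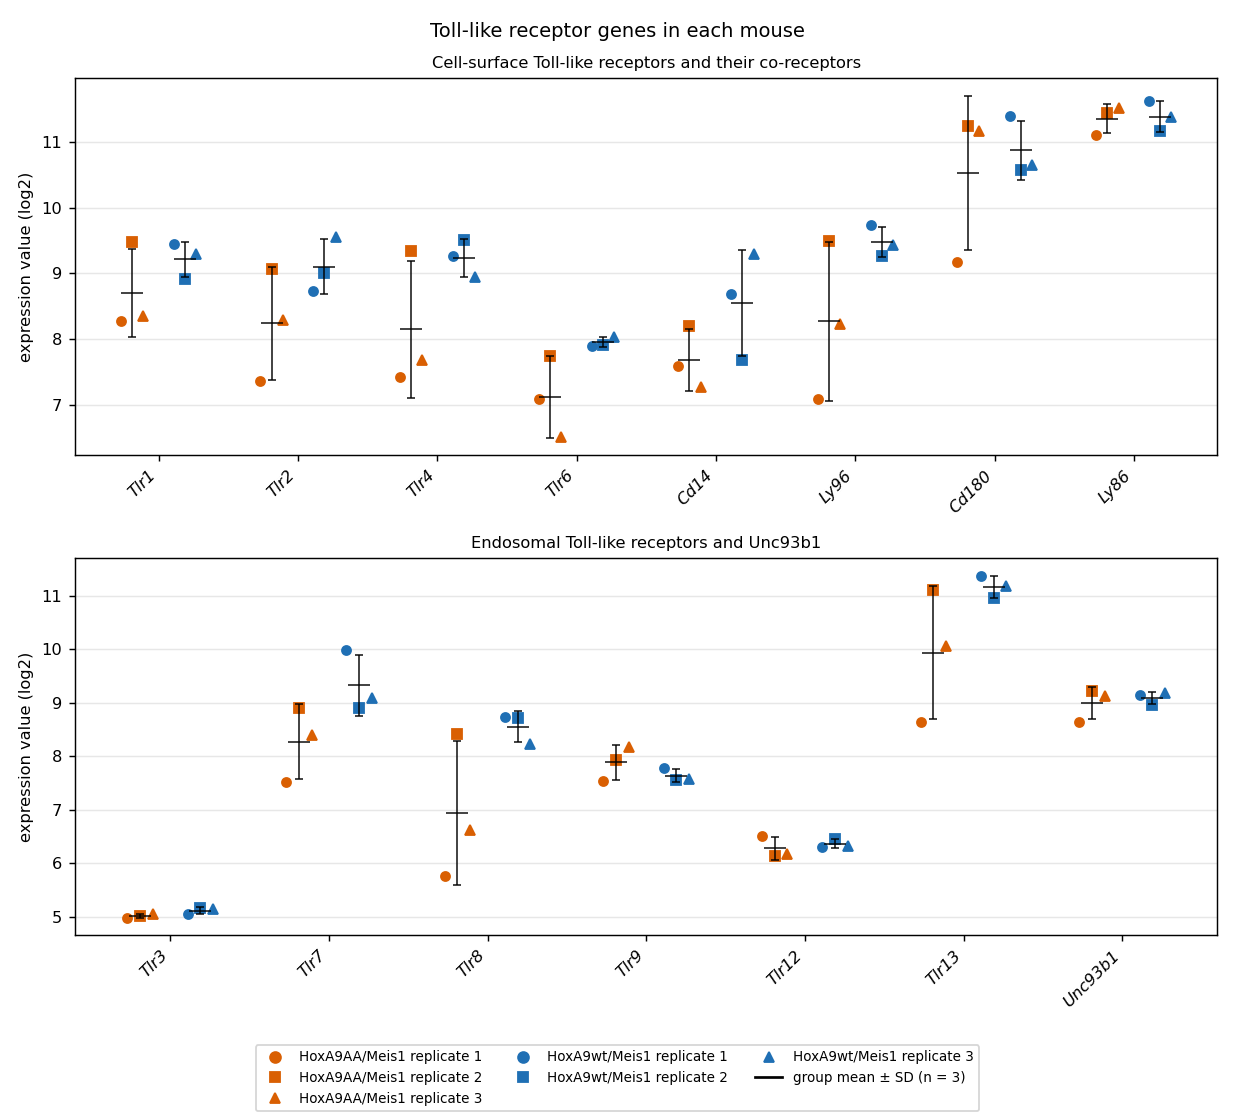
Expression values (log2, vertical axis) of the Toll-like receptor genes, their co-receptors and Unc93b1 on each array; symbols are single mice, orange for HoxA9AA/Meis1 and blue for HoxA9wt/Meis1, and bars are group means ± SD (n = 3). HoxA9AA replicates 1 and 3 lie below the HoxA9wt mice for Tlr4 (7.43 and 7.68) and Tlr8 (5.77 and 6.63), while HoxA9AA replicate 2 lies at 9.34 and 8.41.

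Most markers of monocytes and macrophages were low in the same mice. Of 18 measured markers 16 had a lower mean in HoxA9AA/Meis1 marrow (median difference −0.53). With limma 0 had an adjusted p under 0.05, and 2 had an unadjusted p under 0.05, both lower, against 2.59% of all genes on that side. Without HoxA9AA replicate 1 the median was −0.28, and 16 of the 18 still had a lower mean. Their mean level was 8.66, 9.67 and 8.92 in HoxA9AA replicates 1, 2 and 3, against 9.46 to 9.96 in the HoxA9wt mice. HoxA9AA replicate 1 lay below every HoxA9wt mouse in 14 of the 18, HoxA9AA replicate 3 in 10 and HoxA9AA replicate 2 in 4. Over all genes, dim ones included, the shares were 26.4%, 29.3% and 26.4% in the same order. They were not counted over expressed genes alone. The lectin genes Clec4a3 (6.69, 10.97 and 7.20 in the HoxA9AA mice, against 10.73 to 11.09 in the HoxA9wt mice) and Clec4a1 showed the widest gaps. Vcam1 and C1qc went the other way, with higher means in HoxA9AA/Meis1 marrow. Vcam1 measured 11.35, 9.12 and 9.25 in the HoxA9AA mice, against 8.48 to 8.85 in the HoxA9wt mice (difference 1.28). Its groups did not overlap, and its highest mouse was HoxA9AA replicate 1. Defining markers such as Csf1r, Ccr2 and Lyz2 were well above background in all 6 mice, and the Fc receptor gene Fcgr1 was the marker near background. In whole marrow, fewer cells of a type and less RNA per cell cannot be told apart, and the part of monocyte content in the receptor values was not tested.

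Neutrophil markers took another order. Of 14 markers 13 had a higher mean in HoxA9AA/Meis1 marrow, with a median difference of 0.86. Without HoxA9wt replicate 3 the median was 0.29, with 10 of 14 higher. With limma 0 of the 14 had an adjusted p under 0.05. At an unadjusted p under 0.05 there were 2, both higher, against 4.15% of all genes on that side. The markers had mean levels of 10.84, 10.54 and 9.50 in the HoxA9AA mice, against 9.92, 10.28 and 7.99 in the HoxA9wt mice. HoxA9wt replicate 3, lowest in these markers, was the highest mouse for Tlr2, Tlr6, Cd14 and Nlrp3. Dendritic cell markers had a median difference of 0.09, 7 of 13 with a higher mean, and mean levels of 6.94 to 7.33 in the HoxA9AA mice, against 7.0 to 7.25 in the HoxA9wt mice. Of the B cell markers 5 of 9 were near background, and of the T and NK cell markers 5 of 8.

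Among the NOD-like receptors, Nlrp3 had the largest mean difference, and the others differed by 0.34 or less. Of the 10 measured, 5 had a lower and 5 a higher mean, with a median difference of 0.01. Nlrp3, the inflammasome sensor of membrane damage and potassium loss, measured 7.06, 8.39 and 7.50 in the HoxA9AA mice, against 8.56, 8.03 and 8.66 in the HoxA9wt mice. HoxA9AA replicates 1 and 3 were again the low mice, and the difference was −0.77 ± 0.35 (interval −1.61 to 0.08; −0.47 without HoxA9AA replicate 1). Nod1, a sensor of peptidoglycan fragments, leaned the other way at 8.04, 8.04 and 7.58 in the HoxA9AA mice, against 7.81, 7.48 and 7.35 in the HoxA9wt mice. Its groups overlapped, and the difference was 0.34 ± 0.18 (interval −0.09 to 0.77). Nod2, which binds muramyl dipeptide, averaged 6.96 ± 0.18 in HoxA9AA/Meis1 marrow and 6.90 ± 0.05 in HoxA9wt/Meis1 marrow, not far above background.

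Naip proteins bind flagellin or parts of bacterial secretion systems and then engage Nlrc4. Naip2 averaged 9.20 ± 0.41 in HoxA9AA/Meis1 marrow and 9.54 ± 0.23 in HoxA9wt/Meis1 marrow. Naip5 averaged 9.13 ± 0.33 and 9.46 ± 0.29 in these groups, and for both genes the lowest mouse was HoxA9AA replicate 3 at 8.75 and the highest HoxA9wt replicate 1. The Naip genes are close copies of each other on chromosome 13, and their probe sets may read each other's transcripts. Naip6, near background, stood at 6.58, 5.75 and 5.29 in the HoxA9AA mice and at 5.66 to 6.06 in the HoxA9wt mice. Nlrc4 itself averaged 7.58 ± 0.36 and 7.53 ± 0.23 in HoxA9AA/Meis1 and HoxA9wt/Meis1 marrow, with an interval of the difference from −0.45 to 0.54.

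The remaining family members regulate other responses. Nlrc5, the activator of MHC class I genes, averaged 9.55 ± 0.37 in HoxA9AA/Meis1 marrow and 9.48 ± 0.06 in HoxA9wt/Meis1 marrow. It was read by 19 probe sets, of which 17 had a higher mean in HoxA9AA/Meis1 marrow, with differences from −0.12 to 0.59 and a median of 0.14. HoxA9AA replicate 1 was its highest mouse, at 9.96. Nlrc3, a negative regulator that is near background here, was highest in HoxA9AA replicate 3, at 7.10 against 6.02 to 6.47 in the other 5 mice. Nlrx1, a mitochondrial member, lay between 7.63 and 7.82 in all 6 mice and had the narrowest interval of the NOD-like receptors, −0.25 to 0.21.

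None of the cytosolic RNA sensors passed the test, and Ddx58 had the widest mean difference of them. Ddx58 (RIG-I), which detects RNA with a triphosphate end, measured 8.52, 7.87 and 8.73 in the HoxA9AA mice, against 8.32, 7.43 and 7.20 in the HoxA9wt mice. HoxA9wt replicate 1 lay within the range of the HoxA9AA mice, and the other HoxA9wt mice lay below it. The difference of 0.72 ± 0.34 (1.65-fold higher; interval −0.10 to 1.55; limma, adjusted p = 0.735) was the largest towards higher values among the 38 genes. Ifih1 (MDA5), which detects long double-stranded RNA, measured 8.55, 9.59 and 9.40 in the HoxA9AA mice, against 9.96, 9.27 and 9.34 in the HoxA9wt mice, with HoxA9AA replicate 1 alone low (difference −0.34, and −0.028 without that mouse). Dhx58 (LGP2), a regulator of the other RIG-I-like receptors, stood at 6.51, 6.60 and 7.50 in the HoxA9AA mice, against 7.03, 6.41 and 6.57 in the HoxA9wt mice. HoxA9AA replicate 1 therefore joined a high Ddx58 with the lowest Ifih1, and HoxA9wt replicate 1 was the highest HoxA9wt mouse for each of the 3 genes.

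Ifih1 lies on chromosome 2, where many genes were low in HoxA9AA replicate 1. Of the 50 expressed genes nearest to Ifih1 in gene order, 35 lay below every HoxA9wt mouse in HoxA9AA replicate 1, with a median of −0.39 against the HoxA9wt mean, and medians of −0.04 and −0.21 in HoxA9AA replicates 2 and 3. Around Mavs, on the same chromosome, 33 of 50 did so, with medians of −0.29, −0.005 and 0.075 in HoxA9AA replicates 1, 2 and 3. For the other members the number ran from 4 to 28 of the 29 to 50 nearest genes. It was 16 of 29 around Tlr7, 17 of 30 around Tlr8, 26 of 50 around Aim2 and 4 of 50 around Nlrp3. Over all genes, dim ones included, HoxA9AA replicate 1 lay below every HoxA9wt mouse in 26.4%. The share over expressed genes alone was not counted. The part of such neighbourhoods in the values of Ifih1, Mavs and the other members was not tested.

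Genes of the type I interferon response, to which Ddx58, Ifih1 and Dhx58 themselves belong, are shown beside them. Of 17 measured genes 12 had a higher and 4 a lower mean in HoxA9AA/Meis1 marrow, with a median difference of 0.15 that was 0.025 without HoxA9wt replicate 3. With limma 0 of the 17 had an adjusted p under 0.05, and 3 had an unadjusted p under 0.05, against 6.74% of all genes. Of these 3, Stat2 and Isg20 were higher and Ifit2 lower. The mean level of the 17 genes was 7.29, 7.31 and 7.26 in the HoxA9AA mice, against 7.55, 6.94 and 6.96 in the HoxA9wt mice. HoxA9wt replicate 1 was thus the highest mouse, and Rtp4 measured 9.24 there against 6.13 to 8.18 elsewhere.

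The promoters of Ddx58 and Ifih1 are shown because both hold the interferon-stimulated response element. They lie at chr4:40239776-40240075 and chr2:62646206-62646505, each on the minus strand of GRCm38.p6, and capitals mark its GAAA, any 2 bases and GAAA, read on the opposite strand in Ddx58. With Myd88 and Tlr6, these were the 4 genes with a match among the 30 measured genes that have a window (10.3% of 39 windows, against 3.44% of all 32851 windows). Their differences were 0.72 for Ddx58, −0.34 for Ifih1, 0.07 for Myd88 and −0.83 for Tlr6. A match is a run of letters and not a measured binding site.
Ddx58: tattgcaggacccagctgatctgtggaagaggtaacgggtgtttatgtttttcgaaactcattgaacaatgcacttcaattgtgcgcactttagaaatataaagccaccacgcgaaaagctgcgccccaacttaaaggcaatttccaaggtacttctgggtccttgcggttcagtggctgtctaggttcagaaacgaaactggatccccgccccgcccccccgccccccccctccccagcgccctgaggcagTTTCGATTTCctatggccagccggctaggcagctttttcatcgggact
Ifih1: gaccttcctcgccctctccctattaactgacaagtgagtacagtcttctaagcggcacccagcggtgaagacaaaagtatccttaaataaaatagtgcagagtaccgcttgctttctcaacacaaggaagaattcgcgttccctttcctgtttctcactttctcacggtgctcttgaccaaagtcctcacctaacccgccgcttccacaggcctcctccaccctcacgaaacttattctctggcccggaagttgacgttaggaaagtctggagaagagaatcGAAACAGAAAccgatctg

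Aim2, the DNA sensor that builds an inflammasome through Pycard, measured 9.51, 10.27 and 10.28 in the HoxA9AA mice, against 10.35, 10.29 and 10.47 in the HoxA9wt mice. The groups did not overlap, but HoxA9AA replicates 2 and 3 lay within 0.02 of the lowest HoxA9wt mouse, and the difference of −0.35 ± 0.22 came mostly from HoxA9AA replicate 1. It was −0.095 without that mouse.

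The adaptors and kinases differed by 0.41 or less in size. Ticam1 (TRIF), the adaptor of Tlr3 and of endosomal Tlr4, measured 8.28, 7.60 and 8.19 in the HoxA9AA mice, against 7.48, 7.66 and 7.71 in the HoxA9wt mice. HoxA9AA replicates 1 and 3 lay above every HoxA9wt mouse, the reverse of their order in Tlr4 (difference 0.41 ± 0.19, interval −0.05 to 0.87). Ticam2 (TRAM), the bridge between Tlr4 and Ticam1, measured 7.78, 8.35 and 8.09 in the HoxA9AA mice, against 8.65, 8.33 and 8.24 in the HoxA9wt mice. Like Tlr4 it was lowest in HoxA9AA replicates 1 and 3 (difference −0.33 ± 0.18, interval −0.76 to 0.10).

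Myd88, which serves nearly all Toll-like receptors and the interleukin 1 receptor, averaged 9.07 ± 0.40 in HoxA9AA/Meis1 marrow and 9.0 ± 0.06 in HoxA9wt/Meis1 marrow. HoxA9AA replicate 1 was the lowest of the 6 mice, at 8.66, and HoxA9AA replicate 3 the highest, at 9.45. Tirap, which brings Myd88 to Tlr2 and Tlr4, averaged 8.20 ± 0.12 and 8.06 ± 0.11 in HoxA9AA/Meis1 and HoxA9wt/Meis1 marrow. The inflammasome adaptor Pycard (ASC) measured 7.94 in HoxA9AA replicate 1 and 8.33 to 8.76 in the other 5 mice, and Mavs 7.82 in that mouse and 8.02 to 8.50 elsewhere. The intervals of the differences of Myd88, Pycard and Mavs, −0.40 to 0.54, −0.68 to 0.38 and −0.40 to 0.45, leave room for differences of that size in either direction.

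The Irak kinases, recruited by Myd88, had slightly higher means in HoxA9AA/Meis1 marrow. Irak1 measured 8.78, 8.70 and 8.80 in the HoxA9AA mice, against 8.52, 8.64 and 8.64 in the HoxA9wt mice. Its groups did not overlap, but the difference was 0.16 ± 0.08 (interval −0.04 to 0.36; limma, adjusted p = 0.759). Irak3 (IRAK-M), the inactive kinase that restrains Toll-like receptor signalling in monocytes and macrophages, measured 10.60, 10.21 and 10.48 in the HoxA9AA mice, against 10.43, 9.97 and 10.22 in the HoxA9wt mice. Irak3 was thus not low in HoxA9AA replicates 1 and 3 (difference 0.22 ± 0.16, interval −0.15 to 0.60). Irak2, a later kinase of the same complex, averaged 7.03 ± 0.14 and 6.92 ± 0.12 in HoxA9AA/Meis1 and HoxA9wt/Meis1 marrow.

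**Figure D2:**
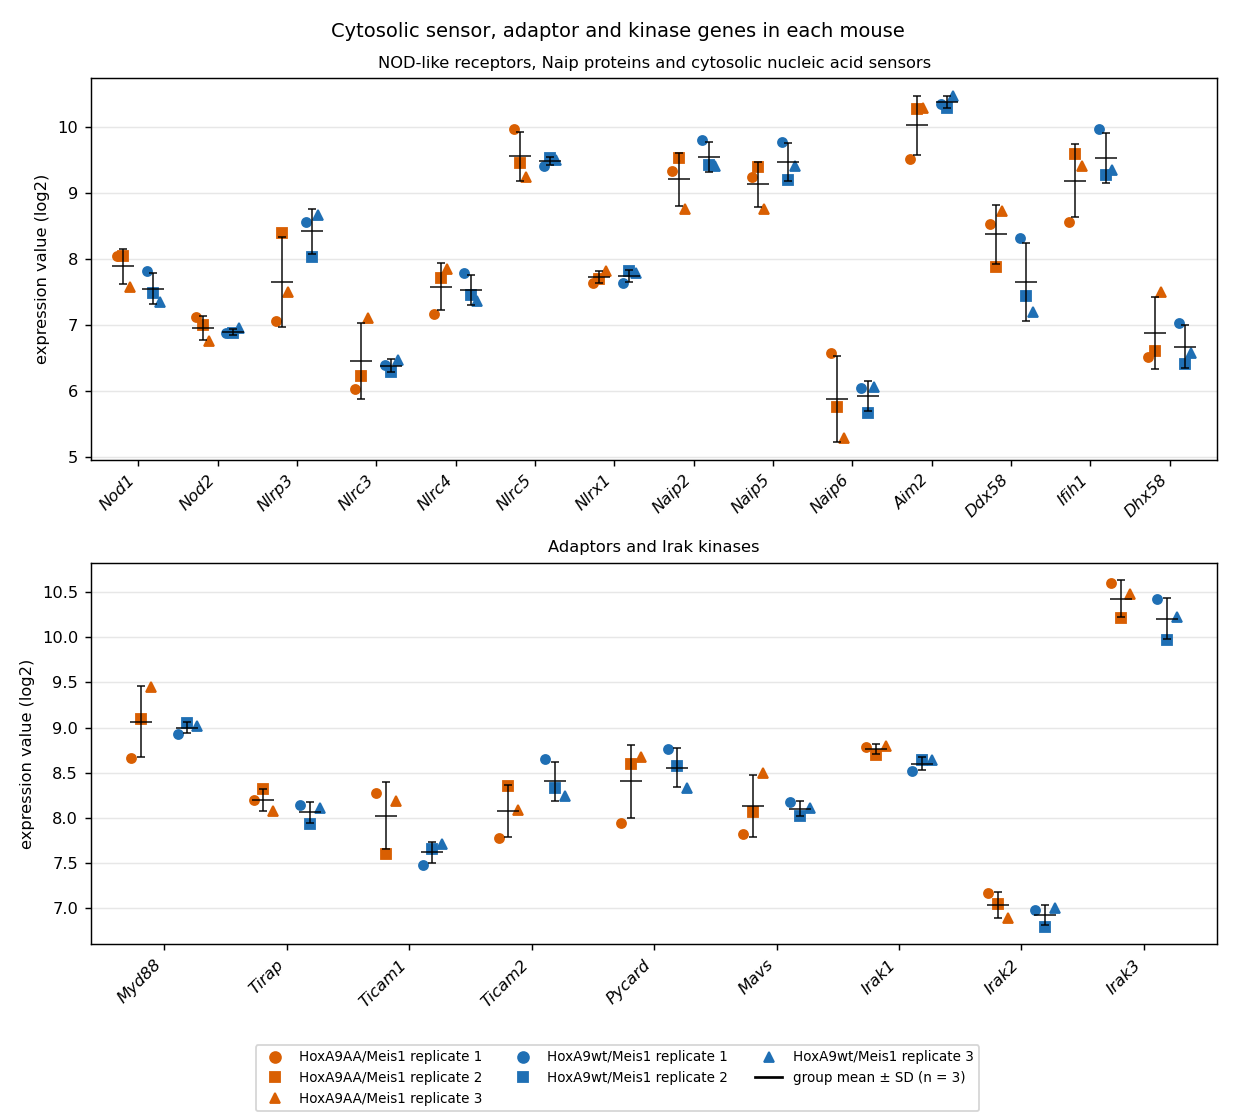
Expression values (log2, vertical axis) of the NOD-like receptors, cytosolic nucleic acid sensors, adaptors and Irak kinases on each array; symbols are single mice, orange for HoxA9AA/Meis1 and blue for HoxA9wt/Meis1, and bars are group means ± SD (n = 3). Nlrp3 is low in HoxA9AA replicates 1 and 3 (7.06 and 7.50), Ddx58 is high in them (8.52 and 8.73), and each Irak gene spans less than 1 unit over all mice.

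The spread between mice was itself uneven. The SD was larger among the HoxA9AA mice than among the HoxA9wt mice in 31 of the 38 genes, against 70.8% of all genes. In Tlr4, Ly96, Cd180, Tlr8 and Tlr13 the HoxA9AA mice had an SD above 1, and in the HoxA9wt mice no SD of the 38 genes exceeded the 0.81 of Cd14. Of the 38 genes 10 had a mean lower by 0.5 or more in HoxA9AA/Meis1 marrow, all of them Toll-like receptors, co-receptors or Nlrp3, and Ddx58 alone a mean higher by 0.5 or more. Over all genes, dim ones included, these shares were 3.21% and 2.89%. They were not counted over expressed genes alone.

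**Figure D3:**
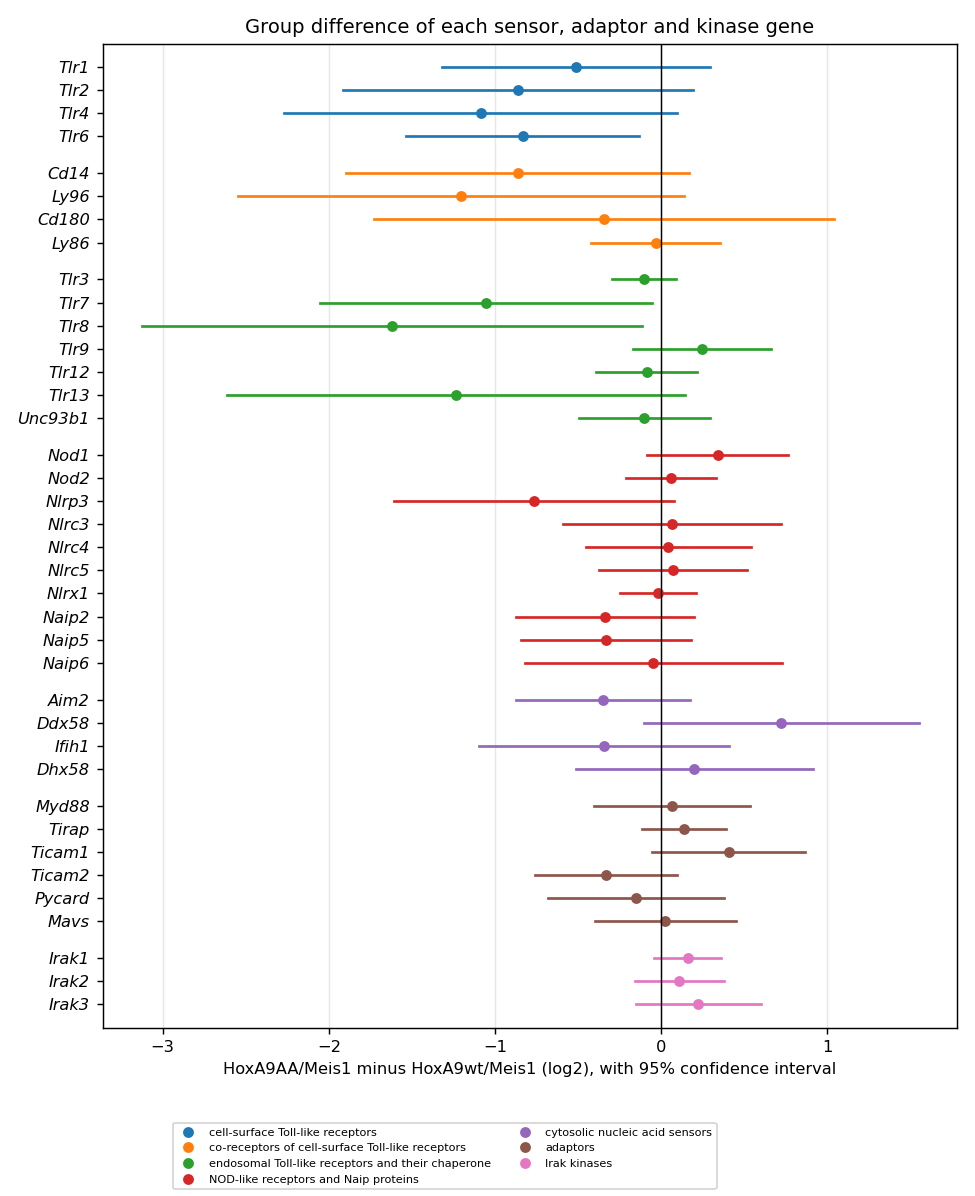
Difference of each measured gene (horizontal axis, HoxA9AA/Meis1 minus HoxA9wt/Meis1, log2) with its 95% confidence interval from limma, coloured by role. The intervals of Tlr6, Tlr7 and Tlr8 lie below 0, at −1.54 to −0.13, −2.05 to −0.05 and −3.13 to −0.11, and those of the other 35 genes include 0.

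Genes further along the pathway were taken from lists, and none of their members had an adjusted p under 0.05. In the shared relay to NF-kB and the interferon regulatory factors, 15 of 19 genes had a lower mean (median difference −0.11, 0 with an unadjusted p under 0.05). The ubiquitin ligase gene Traf6, which follows the Irak kinases, measured 7.57, 8.75 and 8.61 in the HoxA9AA mice, against 8.96, 8.68 and 9.07 in the HoxA9wt mice, and Malt1, Ube2n and Peli1 differed by −0.52, −0.47 and −0.34. Of 14 NF-kB subunits and feedback inhibitors 9 had a lower mean (median −0.04). Among them the subunit genes Rel and Rela lay apart in opposite directions. Rel measured 8.44, 9.97 and 9.47 in the HoxA9AA mice, against 10.16, 10.08 and 10.40 in the HoxA9wt mice. Rela measured 9.52, 9.48 and 9.90 in the HoxA9AA mice, against 9.32, 9.19 and 9.45 in the HoxA9wt mice, and neither gene's groups overlapped. Such groups were found in 3 of the 14 genes, 1 lower and 2 higher, against 11.4% of all genes. With limma 1 of the 14, Rel, had an unadjusted p under 0.05, against 6.74% of all genes (adjusted p = 0.731). The inhibitor gene Nfkbia differed by −0.31, and Tnip3 was above background in HoxA9wt replicates 1 and 3 alone, at 8.39 and 7.16.

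The target cytokines and enzymes had a median difference of −0.05, 11 of 18 with a lower mean, and 8 of the 18 were near background. Il12a, a subunit of interleukin 12, was the member with an unadjusted p under 0.05, at 9.66, 8.52 and 8.97 in the HoxA9AA mice, against 8.36, 8.18 and 8.15 in the HoxA9wt mice. Il1b stood out in HoxA9wt replicate 3, at 10.37 against 6.01 to 7.87 in the other 5 mice, and Ccl4 was near background. Saa3 measured 5.78, 8.24 and 5.98 in the HoxA9AA mice, against 6.24, 10.64 and 9.48 in the HoxA9wt mice. Of 13 inflammasome effectors 11 had a lower mean (median −0.23, 0 with an unadjusted p under 0.05). P2rx7, the ATP-gated channel that triggers Nlrp3, measured 7.47, 8.89 and 7.54 in the HoxA9AA mice, against 8.92, 8.63 and 9.08 in the HoxA9wt mice, low in the same mice as Nlrp3. Casp4, Nlrp1a and Txnip differed by −0.47, −0.51 and −0.29. In the list of other DNA and RNA sensing genes, 8 of 15 had a higher mean (median 0.06). Trim25, the ubiquitin ligase that activates Ddx58, measured 9.79, 9.61 and 9.72 in the HoxA9AA mice, against 9.35, 9.43 and 9.25 in the HoxA9wt mice, with groups that did not overlap (difference 0.36 ± 0.09; limma, adjusted p = 0.731). Oas1a and Samhd1 differed by 0.90 and −0.73, and Ifi205 was near background. With any 1 array left out, the medians ranged from −0.245 to −0.093 for the relay, from −0.114 to −0.0067 for the NF-kB genes, from −0.118 to −0.0058 for the target genes, from −0.315 to −0.093 for the inflammasome effectors (the smallest without HoxA9AA replicate 1) and from −0.017 to 0.192 for the other sensing genes.

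**Figure D4:**
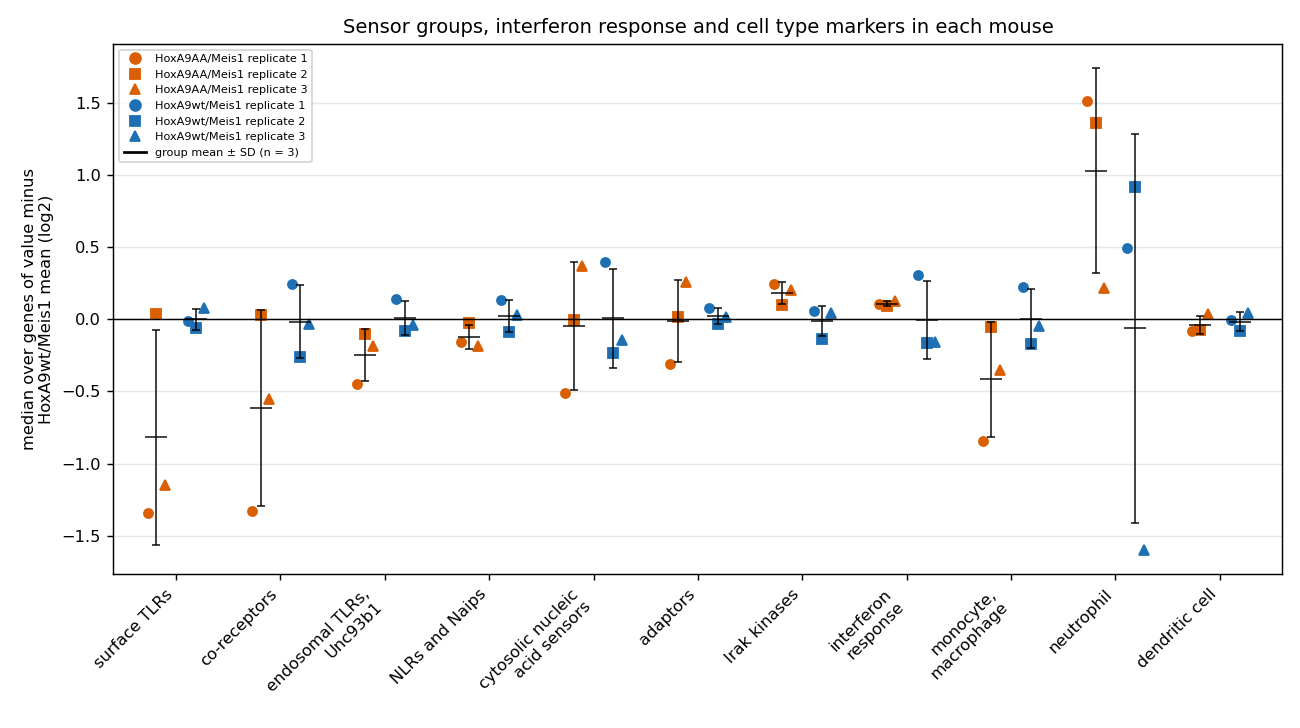
Median over the measured genes of each group of the value minus the HoxA9wt/Meis1 mean (log2, vertical axis) on each array, for the sensor groups, interferon response genes and markers of 3 cell types; symbols are single mice, orange for HoxA9AA/Meis1 and blue for HoxA9wt/Meis1, and bars are group means ± SD (n = 3). The surface Toll-like receptors lie at −1.34, 0.04 and −1.15 in HoxA9AA replicates 1, 2 and 3 and the monocyte and macrophage markers at −0.84, −0.06 and −0.35, while the Irak kinases lie at 0.25, 0.10 and 0.20.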

How the data were processed

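The log2 expression values of 35556 probe sets on 6 arrays were deposited by the authors. The submitters' processing notes name oligo and RMA, a method that corrects background, normalizes arrays by quantiles and summarises each probe set, with no versions. No array was rescaled or left out. Of the probe sets 21789 had 1 gene symbol in the platform annotation, 1621 had several and 12146 were not listed there. The brightest probe set per gene left 19938 genes, and Entrez identifiers changed 0 symbols against RefSeq (GRCm38.p6). No pair of arrays shared more than 2.83% of its values.

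Groups were compared over all genes with the R package limma (version 3.58.1, R 4.3.3; lmFit, then eBayes, two-sided tests) without a block, using Benjamini-Hochberg adjustment and a threshold of 0.05. Intervals are limma's 95% intervals. In simulated data each gene was drawn independently, with the same pooled SD in both groups. With no gene changed, 0 of 19938 were called. With 200 genes changed, 154 were called, of which 150 were changed genes in the right direction. The latter made up 61% of the genes changed by 1 (log2) and 89% of those changed by 2. The wider spread of the HoxA9AA mice was not simulated, so these shares do not carry over to members that varied widely among them. Members and lists were chosen with earlier results of these data known, so counts over them are descriptions.

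Values on every array are printed for members with an unadjusted p under 0.05, groups that do not overlap, an SD of 0.8 or more, or the 2 largest differences of a role, and for others where 1 mouse stood apart, chosen after their values were seen. From each further list at most 4 genes with the smallest p are named, and other genes, such as Rtp4, were named after their values were seen. Expressed genes nearest to a member were taken as up to 25 on each side with a mean above background. Promoters are RefSeq windows, searched on both strands. Alternatives were median centring, a further quantile normalization, averaging probe sets, dropping dim genes, blocking on the replicate number, a trended robust eBayes, unmoderated variances, and omission of each array in turn (for the medians of the further lists, an alternative added after seeing the data). The number of arrays limits precision. Figures were drawn with matplotlib 3.10.9.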

Additional observations from a re-analysis of the deposited data

How the results depend on the processing

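With all 6 arrays, no alternative called any of the 38 genes or any gene at all (limma, adjusted p under 0.05). At an unadjusted p under 0.05 the alternatives gave 958 to 1431 of 19938 genes. With dim genes left out it was 892 of the 10646 genes kept, among them 33 of the 38 members. Over 261 values for single members the sign turned in 3: Ly86 to 0.019 and Mavs to −0.00056 after quantile normalization, and Nlrx1 to 0.005 after median centring. The replicate number as a block called 0 genes and 0 members. At an unadjusted p under 0.05 there were 6 members, against 3 without the block, and 1117 of all genes, against 1344. Same-numbered mice do not deviate together (r of −0.21, −0.10 and −0.01 over genes), and the labels give no pairing. Centring moved the split at an unadjusted p under 0.05 to 1027 higher and 392 lower, against 828 and 516.

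Leaving out 1 array called 0 to 48 genes, 48 without HoxA9AA replicate 2 and 1 without HoxA9wt replicate 3, and 0 members throughout. The median difference of the receptors ranged from −0.465 to −0.125 (without HoxA9AA replicate 2 and without HoxA9wt replicate 1) and that of the adaptors and kinases from 0.075 to 0.148. The sign turned in 22 of 228 values, in 13 of the 38 genes: Cd180 (−0.70 to 0.33), Ly86 (−0.145 to 0.092), Unc93b1 (−0.21 to 0.073), Nod2 (−0.022 to 0.16), Nlrc3 (−0.26 to 0.28), Nlrc4 (−0.093 to 0.25), Nlrc5 (−0.13 to 0.23), Nlrx1 (−0.075 to 0.02), Naip6 (−0.40 to 0.25), Dhx58 (−0.12 to 0.38), Myd88 (−0.13 to 0.27), Pycard (−0.28 to 0.082) and Mavs (−0.16 to 0.18). Tlr4 ranged from −1.68 to −0.73 and Tlr13 from −1.82 to −0.58; fewer samples enter each such fit. With 1 array left out, an alternative chosen after seeing the data for the lists, the sign of the median also turned for the NOD-like receptors (−0.082 to 0.027), the other DNA and RNA sensing genes (−0.017 to 0.192) and the dendritic cell markers (−0.088 to 0.083). Signal near background limits Tlr3, Tlr12, Nlrc3 and Naip6.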

Other observations

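Counted over their list, genes for the trafficking of Toll-like receptors and the handling of their ligands were lower mainly in HoxA9AA replicate 1. Of 19 measured genes for trafficking and ligand handling 15 had a lower mean in HoxA9AA/Meis1 marrow (median difference −0.11). With limma none had an adjusted p under 0.05, and 4 had an unadjusted p under 0.05, all lower, against 2.59% of all genes on that side. HoxA9AA replicate 1 lay below every HoxA9wt mouse in 16 of the 19, HoxA9AA replicate 2 in 6 and HoxA9AA replicate 3 in 7. The shares over all genes, dim ones included, were 26.4%, 26.4% and 29.3%. They were not counted over expressed genes alone. Without HoxA9AA replicate 1 the median of the list was −0.022, with 10 of 19 lower. Ctsl, a lysosomal protease that cuts endosomal receptors into their active form, measured 8.39, 9.33 and 7.95 in the HoxA9AA mice, against 10.05, 9.72 and 10.27 in the HoxA9wt mice, and the groups did not overlap (difference −1.46 ± 0.35). Ctss, a protease with a like role, measured 10.62, 12.24 and 11.35 in the HoxA9AA mice, against 12.52, 12.32 and 12.41 in the HoxA9wt mice. The lysosomal transporter gene Slc15a3 and the proton pump subunit gene Atp6v0d2 differed by −0.75 and −0.90. HoxA9AA replicate 2 was the HoxA9AA mouse nearest to the HoxA9wt mice in all 4 genes. Ctss was lowest in HoxA9AA replicate 1, and Ctsl, Slc15a3 and Atp6v0d2 were lowest in HoxA9AA replicate 3.

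Stem and progenitor markers and erythroid markers, listed as other cells of the marrow, had median differences of 0.14 (6 of 9 with a higher mean) and −0.32 (7 of 7 with a lower mean). Of these, 4 of 9 and 2 of 7 were near background. The stem and progenitor list includes Meis1, which was introduced into the transplanted cells of all 6 mice. HoxA9wt replicate 2 stood apart in the erythroid markers, with a mean level of 8.16, against 6.67 to 7.08 in the other 5 mice, and without it the median was −0.112. Kit, the stem cell factor receptor, measured 9.96, 8.43 and 10.49 in the HoxA9AA mice, against 8.63, 7.54 and 8.38 in the HoxA9wt mice. Kit had the largest difference and the smallest p of its list (1.44 ± 0.55, limma, adjusted p = 0.731). The mice with low surface Toll-like receptors had the highest Kit, and a link between Kit and these receptors was not tested. B cell markers had a median difference of 0.15 and T and NK cell markers one of 0.09.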
